A study of Mus musculus with 4 samples.

Results

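The serpins are a family of proteins with a common fold, and pigment epithelium-derived factor (PEDF, encoded by Serpinf1) belongs to it. The genes described here are the family's other members: the protein-coding genes of the count table named Serpina to Serpini with a number, together with Serping1. Described are 60 such genes among 55487 genes in the table, of which 21936 were protein-coding. Serpinf1 and 7 serpin rows not annotated as protein-coding were left out. RNA was sequenced from wild-type mouse embryonic fibroblasts (MEFs, primary connective tissue cells grown from embryos, here from C57BL/6J embryos at mid-gestation per the study's methods) labelled as passage 2. PEDF purified from mammalian cells was added at 100 ng/mL for 24 h to PEDF cultures, and control cultures received none. Each of 2 experiments gave 1 control and 1 PEDF library (4 libraries in all), with MEFs from different embryos in each experiment, so an experiment's libraries share a cell preparation and the preparations differ in their embryos. The comparison asks which serpins MEFs express, and whether adding one serpin protein went with a change in the RNA of the others.

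Most serpins trap a protease: the enzyme cuts an exposed loop, the reactive centre loop, and the loop then folds into the body of the serpin and carries the enzyme with it. The start of that loop, the hinge, is made of small residues in serpins that inhibit. Some members inhibit nothing and have other tasks, such as carrying hormones or, for Serpinh1 (HSP47), holding newly made collagen in the endoplasmic reticulum. In connective tissue, serpins are known for controlling plasmin formation, thrombin and complement outside the cell and leaked proteases inside it. Mice carry large clusters of serpin genes of clade A on chromosome 12 and of clade B on chromosomes 1 and 13.

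The coding bases of the loop show which expressed members carry such a hinge. They were read from the GENCODE M21 transcripts (build GRCm38) of the leading members, from 3 codons before the hinge to the conserved phenylalanine codon that ends the stretch. Capitals mark the 8 codons that follow the glycine codon at the start of the hinge, and Serpinf1 is shown because its protein was the one added.

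Serpinh1: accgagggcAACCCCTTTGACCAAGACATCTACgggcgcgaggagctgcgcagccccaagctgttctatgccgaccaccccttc
Serpine2: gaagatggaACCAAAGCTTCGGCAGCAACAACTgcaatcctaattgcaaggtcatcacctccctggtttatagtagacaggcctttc
Serping1: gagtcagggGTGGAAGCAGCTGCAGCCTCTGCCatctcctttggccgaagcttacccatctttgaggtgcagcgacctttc
Serpinb6a: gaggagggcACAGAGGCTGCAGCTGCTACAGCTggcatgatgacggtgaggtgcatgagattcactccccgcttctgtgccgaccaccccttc
Serpinb1a: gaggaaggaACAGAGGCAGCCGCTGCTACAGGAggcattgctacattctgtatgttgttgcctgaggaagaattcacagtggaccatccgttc
Serpinb9: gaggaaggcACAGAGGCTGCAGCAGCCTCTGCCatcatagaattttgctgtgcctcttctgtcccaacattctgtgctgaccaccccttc
Serpina3g: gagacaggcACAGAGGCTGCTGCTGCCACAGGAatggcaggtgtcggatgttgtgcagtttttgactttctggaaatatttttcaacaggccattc
Serpina3n: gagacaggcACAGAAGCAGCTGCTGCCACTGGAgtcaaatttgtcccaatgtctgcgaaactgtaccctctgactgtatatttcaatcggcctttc
Serpinf1: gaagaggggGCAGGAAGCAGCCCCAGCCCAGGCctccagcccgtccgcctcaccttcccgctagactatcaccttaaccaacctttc

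Among the 8 capital codons, 7 encode alanine, glycine, serine or threonine in Serpine2, Serpinb6a, Serpinb1a, Serpinb9, Serpina3g and Serpina3n, and 6 do so in Serping1. None of the 8 does in Serpinh1, and 6 do in Serpinf1. The other capital codons of Serpinf1, CCC and CCA, encode proline, so a count equal to that of Serping1 does not mean an equal hinge. Of the 16 serpins described with a mean level of at least 1 TPM (the deposited transcript level, a measure per gene length that sums to 1000000 in each library), 12 had 7 such codons, 3 had 6, and Serpinh1 was the exception. Of the 52 members in which the loop was found, 30 had 7, 12 had 6 and 10 had fewer. A count of codons describes the sequence and does not show inhibition.

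MEFs expressed a minority of the family. With counts summed over the 4 libraries, 25 of 60 serpins had 0 counts, 12 had 1 to 9 and 23 had 10 or more, or 38.3%, against 68.3% of all protein-coding genes. A mean of at least 1 TPM was reached by 16 serpins, or 26.7%, against 57.9% of protein-coding genes, and 10 serpins reached 1 RPKM (reads per kilobase and per 1000000 counts) computed from the counts. At this depth (14722848 to 18144640 counts per library) a count of 0 allows up to 3 counts in a library, or 0.168 to 0.203 CPM (counts scaled to a library of 1000000). Intervals and limits of this kind cover counting error only.

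The share of serpins with counts differed by place in the genome, and the difference was not tested. Counts are of uniquely mapped reads, which near-identical copies in a cluster can lower. Stretches shared between genes, given below, were computed only for members with at least 10 counts. Of the 10 serpins described outside the clusters, 7 had at least 10 counts, against 2 of 11 on the chromosome 1 cluster, 9 of 23 on the chromosome 12 cluster and 5 of 16 on the chromosome 13 cluster. The only clade A gene outside its cluster, Serpina7 on chromosome X, had 0 counts. These 10 genes summed to 4911 to 5162 TPM in a library, of which the 9 other than Serpinh1 made up 165 to 190.3 TPM, whereas the chromosome 13 cluster summed to 82.5 to 97.3 TPM, the chromosome 12 cluster to 33.0 to 39.2 TPM and the chromosome 1 cluster to 2.63 to 3.57 TPM.

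**Figure D1:**
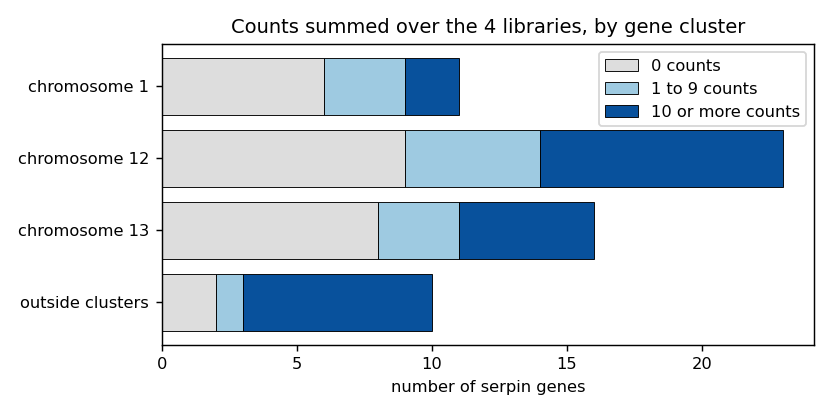
The horizontal axis gives the number of serpin genes and the rows give the chromosome clusters and the genes outside them, split by counts summed over the 4 libraries. Outside the clusters, 7 of 10 genes had at least 10 counts, and in each cluster most genes had fewer.

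Serpinh1, the collagen chaperone (chr7:99345376-99353239, minus strand), was the leading serpin. It stood at 4978 TPM in the control and 4722 TPM in the PEDF library of experiment 1, and at 4768 and 4794 TPM in those of experiment 2. Its mean of 4816 ± 113 TPM (SD, n = 4) ranked 8 among all protein-coding genes. Serpinh1 alone made up 93.5% to 94.4% of the summed level of the serpins described here, 5051 to 5296 TPM, and the other 59 together reached 284 to 329 TPM.

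Serpine2 (protease nexin-1, an inhibitor of thrombin, urokinase and plasmin; chr1:79794197-79861180) was at 156 and 162 TPM in experiment 1 and 145 and 166 TPM in experiment 2, lower in control than in PEDF each time. Serpine3, of the same clade, had 34 counts in all, at 0.126 to 1.73 TPM, and 24.8% of its exon bases overlap Ints6 on the opposite strand. Serpinf1 itself, at 510 to 580 TPM, would stand between Serpinh1 and Serpine2.

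Serping1, the C1 inhibitor that blocks the first proteases of the classical complement pathway (chr2:84765387-84775444), was at 20.2 and 21.3 TPM in control and PEDF of experiment 1 and at 13.96 and 18.1 TPM in experiment 2. Both libraries of experiment 2 lay below both of experiment 1. Other secreted inhibitors of the blood were low: Serpinc1 (antithrombin) at 1.80 to 2.28 TPM (87 to 120 counts in each library), and Serpinf2 (alpha-2-antiplasmin) at 0.838 to 2.50 TPM. Serpini1 (neuroserpin, an inhibitor of tissue plasminogen activator in neurons) was at 1.15 to 1.65 TPM. The antithrombin value is uncertain, since 34.4% of the exon bases of Serpinc1 overlap Zbtb37 on the opposite strand.

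The intracellular clade B serpins were led by Serpinb6a (chr13:33917918-34002794), at 63.8 and 66.3 TPM in control and PEDF of experiment 1 and 62.5 and 68.4 TPM in experiment 2. Both PEDF libraries lay above both control libraries, and 29.3% of its exon bases overlap genes on the opposite strand, Nqo2 and Ripk1 among them. Serpinb9, an inhibitor of granzyme B, ranged from 8.37 to 10.5 TPM. Serpinb1a, an inhibitor of neutrophil serine proteases, was at 8.29 and 10.6 TPM in control and PEDF of experiment 1 and at 4.72 and 8.69 TPM in experiment 2. Serpinb6b was at 8.18 and 8.50 TPM in experiment 1 and at 3.95 and 5.21 TPM in experiment 2. Serpinb8, an inhibitor of furin, was at 2.39 to 2.94 TPM and Serpinb9b at 1.42 to 2.05 TPM, with 8.30% of its exon bases on Gm36099 of the other strand. Of the 27 clade B genes, 7 had at least 10 counts.

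Clade A, the clade of the liver's antiproteases, had 9 of 24 genes with at least 10 counts. Serpina3g, a cytoplasmic inhibitor of cysteine cathepsins, was the highest at 20.2 to 21.5 TPM. Serpina3n, a secreted acute-phase inhibitor, was at 9.62 and 10.3 TPM in experiment 1 and 7.31 and 7.82 TPM in experiment 2. Serpina1b, one of the mouse alpha-1-antitrypsins, was at 3.87 and 3.58 TPM in experiment 1 and 1.68 and 3.08 TPM in experiment 2. Near-identical copies make its values uncertain: of all stretches of 100 bases in its transcripts, 14.8% also occur in another gene, and this share was 42.8% for Serpina1a and 69.3% for Serpina1c. The share was 3.49% for Serpina3g and 0.204% for Serpina3n, and 0% for Serpinh1, Serpine2, Serping1, Serpinb9, Serpinb1a and Serpinb6b.

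Below 1 TPM but with at least 10 counts stood Serpina3i (50 counts), Serpina1a (34), Serpina3f (28), Serpina1c (13), Serpina10 (13), Serpinb2 (11) and Serpina6 (10). Among the 12 genes with 1 to 9 counts were Serpind1 (heparin cofactor II) and Serpinb7 with 7 counts each, and Serpinb5 (maspin) with 1. The 25 genes at 0 included Serpina7 (thyroxine-binding globulin), the 4 Serpinb3 genes and Serpini2. In the order of means, the lowest library of Serpinh1, Serpine2, Serpinb6a, Serping1, Serpinb6b and Serpinb8 lay above the highest library of the next gene described. All other neighbours overlapped.

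**Figure D2:**
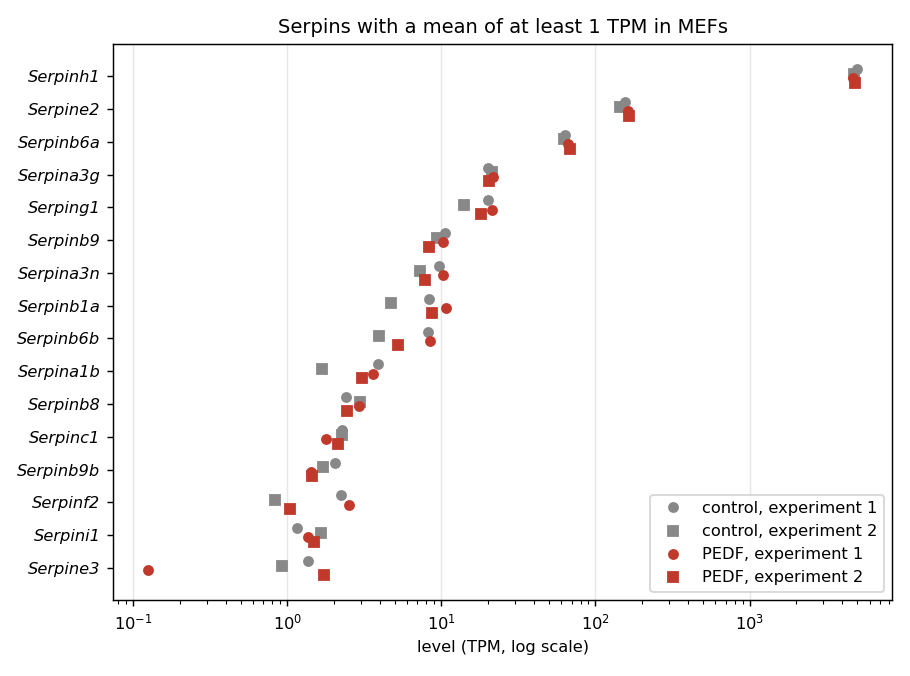
The horizontal axis gives the level in TPM on a log scale for the 16 serpins described with a mean of at least 1 TPM, with 1 point per library, grey for control and red for PEDF, circles for experiment 1 and squares for experiment 2. Serpinh1, at 4722 to 4978 TPM, stands apart from all others.

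Without a term for the experiment, no serpin passed an adjusted p under 0.05 between PEDF and control (edgeR quasi-likelihood test, 23 serpins tested, with Benjamini-Hochberg adjustment across the 19384 genes that had at least 10 counts, 0.00516% of which were called). DESeq2 called none either, and gave none an unadjusted p under 0.05. In edgeR an unadjusted p under 0.05 was given to 1 serpin, Serpinb1a, against 6.88% of all genes. With a term for the experiment (the block) 3 serpins had one, all higher, where 1392 of the 19384 genes did as higher. With the trend with gene length also removed it was 3 higher and 1 lower, where 1082 and 1174 of all genes were. Without the block the median log2 fold change of the 23 was 0.12, with 15 above 0, against 0.0012 over all genes, of which 50.2% were above 0. With the block the median was 0.064, and with the length trend also removed it was 0.041. Both PEDF libraries lay above both control libraries for 5 serpins (Serpina1c, Serpina3f, Serpinb1a, Serpinb6a and Serpine2), where the background share was 18.9%. Both lay below for 3 (Serpina3i, Serpinb9b and Serpinc1), where it was 18.4%. With 2 libraries per group, the tests without the block rest on the spread between preparations. In the blocked edgeR fit a typical gene takes the spread of the trend over all genes instead.

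Within each experiment, where both libraries come from the same MEF preparation, 9 of 23 serpins were higher with PEDF each time (30.1% of all genes) and 4 were lower each time (28.8%). These shares are described and not tested.

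With the block, Serpinb1a, Serpine2 and Serpinb6a had an unadjusted p under 0.05 in edgeR. In the fit without it described above, Serpinb1a alone did, at 0.028. Its CPM was 6.78 in control and 8.94 with PEDF in experiment 1, and 3.76 and 6.96 in experiment 2. The log2 ratio was 0.40 in experiment 1 (95% counting interval 0.02 to 0.79, from the counts alone) and 0.89 in experiment 2 (0.45 to 1.34). The log2 fold change was 0.61 ± 0.25 (SE), with an adjusted p of 0.696 in edgeR. With the experiment as a block it was 0.63 ± 0.18 with an adjusted p of 0.0248, and with the trend with gene length also removed it was 0.56 ± 0.19 with an adjusted p of 0.0958. Over its 13 alternatives with an adjusted p, that p ran from 0.0248 to 1. Single libraries moved the value: without the control library of experiment 1 the log2 fold change was 1.08, with an adjusted p of 0.0363, and it was 0.22 without the control library of experiment 2, 0.42 without the PEDF library of experiment 1 and 0.78 without that of experiment 2. The last 3 did not pass. Each of these fits has 1 library in an arm, which is assumed to vary like the pair in the other arm.

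Macrophage markers other than Csf1r and Ptprc were also lowest in the control library of experiment 2. The 8 markers summed to 256 and 267 TPM in control and PEDF of experiment 1 and to 155 and 219 TPM in experiment 2, with Lyz2, the largest of them, at 129, 130, 57.8 and 101 TPM. With PEDF, Csf1r went from 16.5 to 13.9 TPM in experiment 1 and from 15.2 to 14.2 TPM in experiment 2, and Adgre1 went from 15.03 to 12.04 TPM in experiment 1. Cd14 was also lower with PEDF in experiment 1, and both were higher with PEDF in experiment 2. The log2 fold change was above 0 for 5 of the 8. Ptprc, the common leukocyte marker, was under 1 TPM in every library, while Cd68 stood at 17.8 to 20.3 TPM. Between PEDF and control, 1 of the 8 was higher with an adjusted p under 0.05 in the blocked fit (1.67% of all genes) and none without the block. The part of such cells in the Serpinb1a values was not tested, and in bulk RNA fewer cells of a type and less RNA per cell cannot be told apart.

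Serpine2 was at 460 and 489 CPM in control and PEDF of experiment 1 and at 415 and 477 CPM in experiment 2. Its log2 ratio was 0.09 (0.04 to 0.14) and 0.20 (0.16 to 0.25) in the experiments. The log2 fold change of 0.14 ± 0.07 had an adjusted p of 0.737 without the block, and that of 0.15 ± 0.04 one of 0.0321 with it. The size was small in every fit, from 0.07 to 0.22 on the log2 scale over the alternatives.

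Counting the blocked fit as a whole, 2 of 23 serpins had an adjusted p under 0.05 (Serpine2 and Serpinb1a), against 3.75% of all genes. With the length trend removed there was 1 (Serpine2), against 2.21%. The block in DESeq2 gave an adjusted p to 3 of the 23 (Serpinb6a, Serpine2 and Serpinh1) and called none of them, against 6.55% of the genes given one, with 1 of the 23 at an unadjusted p under 0.05. A test of whether a response differed between the experiments could not be made, since it leaves no spread between libraries.

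The other well-measured members had these differences. Serpinh1 was at 4319 and 4209 CPM in control and PEDF of experiment 1 and at 4024 and 4071 CPM in experiment 2, a log2 fold change of -0.01 (95% interval -0.17 to 0.15). Serpinb6a had 0.12 (-0.04 to 0.27), Serping1 0.24 (-0.15 to 0.62), and Serpina3g 0.04 (-0.24 to 0.31). The intervals of these members are from the fit without the block. With the block the interval was 0.01 to 0.22 for Serpinb6a (adjusted p of 0.264), -0.005 to 0.49 for Serping1 and -0.21 to 0.28 for Serpina3g. Low members had wide intervals, as for Serpinf2 at 0.26 (-0.89 to 1.40). Serpinf1, the gene of the protein that was added, had 0.02 (-0.12 to 0.17).

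**Figure D3:**
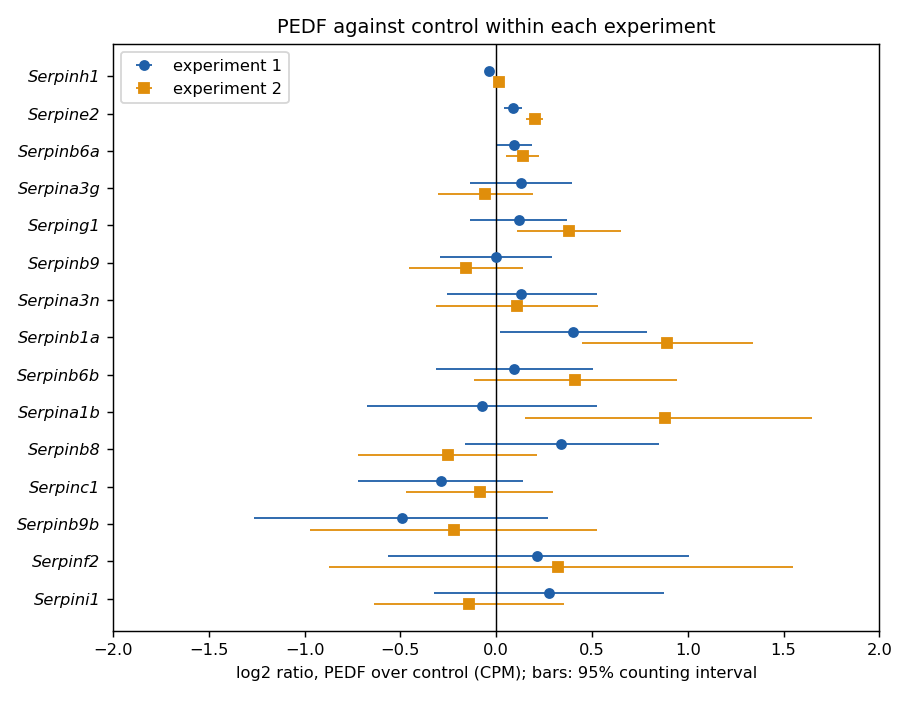
The horizontal axis gives the log2 ratio of CPM, PEDF over control, in experiment 1 (circles) and experiment 2 (squares) for the 16 serpins described of at least 1 TPM apart from Serpine3, whose interval is too wide to draw, and bars give 95% counting intervals. Serpinb1a was at 0.40 and 0.89, Serpine2 at 0.09 and 0.20 and Serpinb6a at 0.09 and 0.14, with the counting intervals above 0 in both.

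The preparations of the experiments were compared next, since their embryos differ. With the treatment as a term, 4 of 23 serpins were lower in experiment 2 at an adjusted p under 0.05 and 0 were higher, by edgeR. The background shares were 2.19% and 2.3%. Both libraries of experiment 2 lay below both of experiment 1 for 10 of the 23, against 18.4% of all genes, and the median log2 difference was -0.28, against 0.00066 over all genes. DESeq2 gave an adjusted p to 2 of the 23 (Serpine2 and Serpinh1) and called neither, where 2.29% of the genes given one were lower. It gave 1 of the 23 an unadjusted p under 0.05 against 10 in edgeR, all lower (7.28% of all genes were lower at that threshold), and a smaller number passed under other filters or with gene length accounted for.

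Serpinb6b was the lowest in experiment 2 by adjusted p, at -0.92 ± 0.21 on the log2 scale and an adjusted p of 0.000796. Its counts were 97 in control and 109 with PEDF in experiment 1, and 55 and 73 in experiment 2. Serpinf2, with 27 and 33 counts against 12 and 15, had -1.38 ± 0.45 and an adjusted p of 0.0487. Serping1 had -0.43 ± 0.13 and 0.0202, and Serpinb1a -0.57 ± 0.18 and 0.0431. With 1 library left out the Serpinb1a value ran from -0.85 to -0.36, the latter when a control library was left out. All 4 calls were kept with RLE factors, while Serpinb1a and Serpinf2 did not pass with no count filter or filterByExpr and only Serpinb6b passed with the length trend removed, where Serping1 had -0.38, Serpinb1a -0.52 and Serpinf2 -1.32. None passed in limma or with the experiment as the only term, and DESeq2 gave none of the 4 an adjusted p.

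Hepatocyte and macrophage markers were on balance lower in experiment 2 as well, while those of other types were not all so. The 7 hepatocyte markers summed to 146 and 139 TPM in control and PEDF of experiment 1 and to 71.4 and 78.9 TPM in experiment 2. Of these, 4 of 7 were lower at an adjusted p under 0.05, beside the 2.19% of all genes, and the median was -1.02 on the log2 scale. The defining markers were present in every library, Afp at 51.1 to 106 TPM and Alb at 9.42 to 19.6 TPM. For some of the serpins known to be made in the liver, the log2 ratio of experiment 2 over 1 is given with its counting interval. In control and PEDF MEFs it was -1.44 (-2.56 to -0.41) and -1.33 (-2.32 to -0.41) for Serpinf2. For Serpina1a it was -1.41 (-3.29 to 0.23) and -2.004 (-4.07 to -0.33). For Serpina1b it was -1.24 (-2.001 to -0.52) and -0.29 (-0.90 to 0.32). Neither Serpina1a (adjusted p of 0.272) nor Serpina1b (0.183) passed in edgeR. The log2 ratio was -0.02 and 0.18 for Serpinc1. For Serpina1c and Serpina6, with 1 to 4 counts in each library, it was above 0 in control and below 0 with PEDF. All 8 macrophage markers also had a negative difference, and 2 passed. Epithelial markers had a median of -0.14, with 1 of 8 passing as lower. Neuron markers had 5 of 6 above 0 (median 0.18) and endothelial markers 4 of 5 (median 0.046), with 0 passing in edgeR and 0 at an unadjusted p under 0.05. Of the 10 fibroblast markers 8 were above 0, with 3 passing as higher and 2 as lower. The part of such cells in the serpin differences was not tested, and embryo and experiment cannot be told apart.

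The libraries held the markers of the labelled cell type. All 10 fibroblast markers were at 1 TPM or more, with sums of 14760 to 19947 TPM, and endothelial markers summed to 6.83 to 7.24 TPM with Tie1 at 0 counts. Epithelial markers summed to 73.3 to 91.8 TPM, mostly Krt18 at 45.96 to 50.2 TPM and Krt8 at 19.3 to 34.01 TPM, with Krt5, Krt15 and Trp63 under 1 TPM. Neuron markers summed to 103 to 123 TPM, mostly Tubb3 at 93.6 to 113.97 TPM, with Rbfox3 and Snap25 under 1 TPM.

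**Figure D4:**
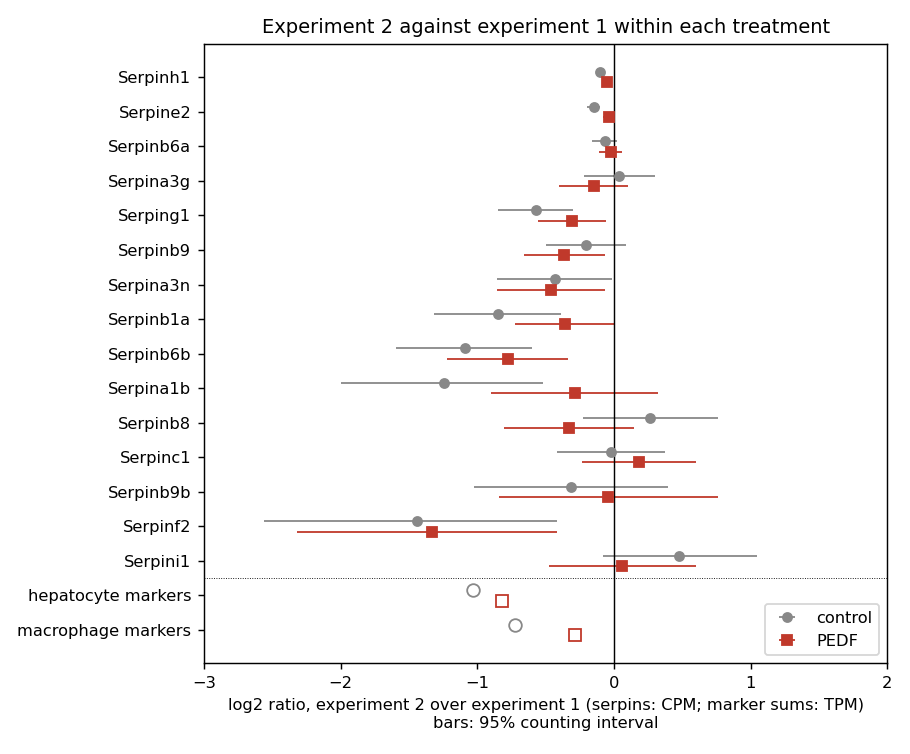
The horizontal axis gives the log2 ratio of experiment 2 over experiment 1 in control (circles) and PEDF (squares), for 15 serpins as CPM with 95% counting intervals and, as open symbols, for summed marker levels as TPM. Hepatocyte marker sums were at -1.03 and -0.82 and macrophage marker sums at -0.72 and -0.29. Serpinf2, Serpinb6b, Serping1 and Serpinb1a, the 4 serpins called in edgeR, lay below 0 in both treatments, as did others that were not called.

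The proteins that serpins act on or work with were followed in 6 lists of 103 genes, of which 92 had at least 10 counts. Without the block none of the 92 passed an adjusted p under 0.05 with the filter of 10 counts, and with no filter Col5a1 and Lrp1 passed as lower. With the filter, 1 was higher and 7 lower at an unadjusted p under 0.05, where 6.88% of all genes passed in either direction. With the block 1 was higher and 8 were lower, against 1.67% and 2.07% of all genes. DESeq2 with the same block gave an adjusted p to 42 of the 92, of which 3 passed, all lower: Col5a2, Lrp1 and Ltbp2. Of the 1817 genes given one, 4.79% passed as lower. Col1a1, Col1a2, Col5a1 and Ccn2 did not pass there, and Masp2 and Id1 were given no adjusted p. The median log2 fold change was -0.02 in both fits.

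In the list of plasminogen activation, 13 of 13 genes were tested and only Lrp1 passed with the block, and it was lower (2.07% of all genes were). Lrp1 is the receptor that clears Serpine2 complexes from the cell surface. Its CPM was 1616 and 1242 in control and PEDF of experiment 1 and 2019 and 1532 in experiment 2. The log2 fold change was -0.39 ± 0.04 with the block (adjusted p of 1.06e-18) and had an adjusted p of 0.696 without it. The blocked fit has an infinite median prior, so a typical gene takes the spread of the trend over all genes. The SE and p of Lrp1 with the block therefore need not reflect its own spread between libraries. Anxa2 and S100a10, which bind plasminogen at the cell surface, had 0.05 and 0.09 and did not pass.

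The list of collagen folding held 24 genes around the task of Serpinh1. In the blocked fit 4 of 24 were lower (2.07% of all genes) and none higher: Col5a1 (-0.32), Col1a1 (-0.24), Col5a2 (-0.21) and Col1a2 (-0.12), all chains of fibrillar collagens. Col1a1 was at 19417 and 17302 CPM in control and PEDF of experiment 1 and at 24006 and 19320 CPM in experiment 2. Col3a1, with -0.09, did not pass, and Serpinh1 had -0.01 beside them. With the trend with gene length removed, Serpinh1 had -0.077 (95% interval -0.150 to -0.0044) and an adjusted p of 0.379. The fibroblast markers, which share Col1a1, Col1a2 and Col3a1 with this list, summed to 16629 and 14760 TPM in control and PEDF of experiment 1 and to 19947 and 16773 TPM in experiment 2. In the blocked fit 4 of the 10 were lower (Col1a1, Col1a2, Fn1 and Pdgfrb) and 2 higher (Dcn and Lum), and without the block none passed in edgeR, with 3 lower and 1 higher at an unadjusted p under 0.05. Their part in the collagen values was not tested.

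In the complement list, 1 of 11 tested genes passed with the block: Masp2, a protease of the lectin pathway, was lower at -0.65 ± 0.16 (adjusted p of 0.00398), from 9.69 to 5.60 CPM in experiment 1 and 11.6 to 7.97 CPM in experiment 2. The macrophage genes C1qa and C1qb, parts of the C1 complex, had 0.29 and 0.34 and did not pass, and Masp1 had -0.08. In the list of TGF-beta target genes, 3 of 20 passed with the block (3.75% of all genes): Id1 was higher (0.26), and Ltbp2 (-0.27) and Ccn2 (-0.17) were lower. Acta2, Tagln and Postn had 0.02, 0.03 and -0.0027. None of the 12 tested genes in the list of thrombin and coagulation passed with the block, with F2r, Pros1 and Thbd at -0.06, -0.0058 and -0.18. With the block and filterByExpr, another filter on low counts, Thbd passed as lower and Ccn2 did not pass. None of the 12 tested intracellular and leukocyte proteases passed either, with Ctsb, Prss23 and Ctsl at 0.10, -0.02 and 0.05.

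Gene length moved with the treatment and with the experiment in these libraries. The log2 ratio of PEDF over control fell by 0.040 in experiment 1 and by 0.056 in experiment 2 for each doubling of gene length. That of experiment 2 over experiment 1 rose by 0.051 in control and by 0.035 in PEDF MEFs. With the length trend removed from the blocked fit, Lrp1, Masp2, Col1a1, Col5a1, Col5a2, Ltbp2 and Ccn2 also passed, Col1a2 and Id1 did not, and Thbd and Ccn1 passed as lower. The log2 fold change of Lrp1 was then -0.25, that of Col5a1 -0.27, that of Col1a1 -0.21, that of Col5a2 -0.15 and that of Masp2 -0.69.

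**Figure D5:**
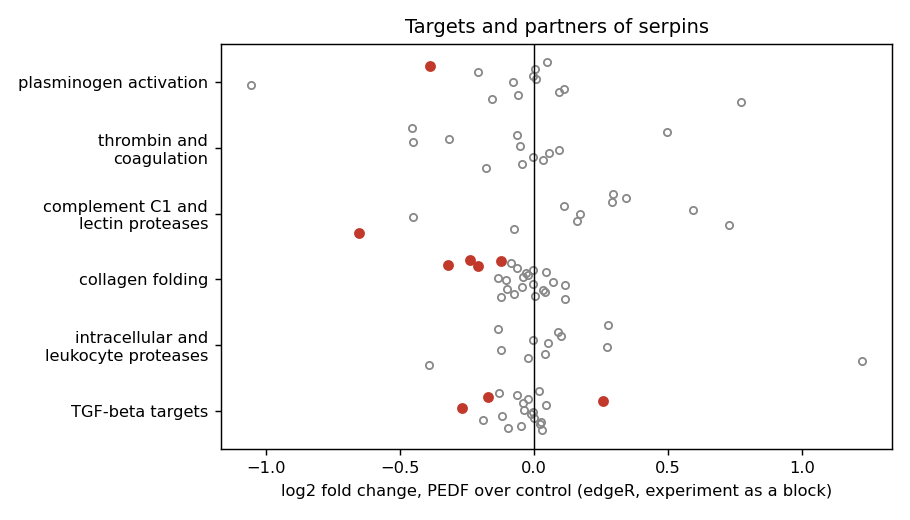
The horizontal axis gives the log2 fold change of PEDF over control with the experiment as a block, and each point is a gene of one of 6 lists. Filled red points mark the 9 genes that passed the adjusted threshold of 0.05, and Id1 alone among them lies above 0.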

How the data were processed

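Poly(A) RNA of 4 MEF samples was made into directional libraries. The labels give passage 2, and the paper's text gives P3. The authors trimmed the reads (Trimmomatic 0.38), aligned them (HISAT2 2.1.0, build mm10) and deposited counts of uniquely mapped reads per gene (featureCounts 1.6.3), not normalized. They also deposited TPM, whose conversion is not described. The annotation and the strand setting of the counting are not given in the sources used here, so overlapping genes on opposite strands may share reads.

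Counts were tested in R 4.3.3 with edgeR 4.0.16 (TMM factors, robust quasi-likelihood test, Benjamini-Hochberg adjustment) over 19384 genes with at least 10 counts in total, without covariate, since the study's methods name none. SE were derived from the F statistic. CPM use TMM library sizes. TPM were used to compare genes. The experiment difference was fitted with a treatment term. The labels give each experiment its own embryos and so pair the libraries, and across the 10722 genes whose mean log2 CPM exceeded 3, the experiment difference in control correlated with that in PEDF MEFs (r = 0.423). Nothing in the labels says that libraries are more than 1 culture each.

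Alternatives were DESeq2 1.42.0, RLE factors, no count filter, filterByExpr, the experiment as a block in edgeR and DESeq2, the block with the length trend removed, limma 3.58.1 on log2(TPM + 1) and log2(TPM + 0.1), and each library left out. The block with filterByExpr was chosen after seeing the data. Genes named are serpins with a mean of at least 1 TPM, those with at least 10 counts, those passing a test, and of each partner list those passing with or without the block and the 3 highest in mean CPM. Thbd and Ccn1, which passed in other blocked fits, were named after their values were seen, as were the genes with fewer than 10 counts and single marker genes. The members and lists were chosen with earlier results of these data known. Another gene that meets the rule is not reported here and is in no count or sum over the serpins. Ctgf and Cyr61 were matched as Ccn2 and Ccn1, and Ctsv had no row. All 60 members have the coordinates of GENCODE M21. Loops were found with Biopython 1.88 as the first glutamate codon, then a glycine codon at most 1 codon later, within 38 codons before a conserved proline or serine and phenylalanine; 52 of 60 members had a match. The fits for the treatment and for the experiment were run on simulated counts in which every gene had the same spread setting. Such counts cannot show false calls that come from a spread differing between genes.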

Additional observations from a re-analysis of the deposited data

Results flagged for a closer look

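Serpinh1 had a log2 ratio of PEDF over control of -0.037 in experiment 1 and of 0.017 in experiment 2, opposite directions with both counting intervals on their own side of 0. The difference between the experiments was not tested, since 1 library per condition and experiment leaves no spread, and the counting intervals do not hold the variation between cultures.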

How the results depend on the processing

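For PEDF against control, the count of serpins with an adjusted p under 0.05 was 0 in the main fit and under DESeq2, RLE factors, no count filter, filterByExpr, both limma fits and the block in DESeq2 (3 serpins given an adjusted p). It was 2 with the replicate block in edgeR, 1 with the block and the length trend removed and 2 with the block and filterByExpr. Leaving out 1 library gave 0 to 1: without control replicate 1 Serpinb1a passed. The block changed no other serpin's call. The blocked fit has an infinite median prior, so that a typical gene takes the spread of the trend. With filterByExpr the median prior was 72.7 degrees of freedom. For experiment 2 against 1 the count of 4 became 0 with DESeq2 (2 serpins given an adjusted p), 0 with the experiment as the only term (no treatment term), 0 with limma, 2 each with no filter and filterByExpr, and 1 with the length trend removed. Leaving out a library there leaves no residual spread, so log2 values alone were computed. Of the partner genes, 0 passed in the main fit, 2 with no filter, 9 with the block, 3 with the block in DESeq2 (42 given an adjusted p), 9 with the block and length, 9 with the block and filterByExpr, and 0 to 6 with 1 library left out (6 without control replicate 1). The 16 serpins of at least 1 TPM became 10 at 1 RPKM (the level per length recomputed) from the counts, and 15 to 17 with 1 library left out. RPKM and TPM are on different scales, so 1 RPKM is another limit than 1 TPM. At 2 TPM there were 12 serpins and at 0.5 TPM 19.

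Directions turned when a library was left out. For PEDF the log2 fold changes ran from -0.062 to 0.040 for Serpinh1, -0.038 to 0.11 for Serpina3g, -0.034 to 0.54 for Serping1, -0.26 to 0.10 for Serpinb9, -0.12 to 0.35 for Serpina3n, -0.25 to 0.84 for Serpinb6b, -0.22 to 1.02 for Serpina1b, -0.13 to 0.20 for Serpinb8, -0.54 to 1.11 for Serpinf2, -0.17 to 0.30 for Serpini1 and -2.97 to 0.59 for Serpine3. For the experiments they ran from -0.15 to 0.039 for Serpina3g, -0.33 to 0.26 for Serpinb8, -0.028 to 0.18 for Serpinc1 and -0.59 to 3.57 for Serpine3. Serpina3g turned to -0.045 for PEDF with the block and length. For the experiments, Serpina3g turned to 0.0060 with length removed and 0.00075 with limma, Serpinb6a to 0.0077 and Serpinb8 to 0.015 with limma. The cause was not tested.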
